A study of Mus musculus with 11 samples.

Results

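Tumor necrosis factor (TNF) superfamily ligands and receptors were examined in MC38 tumors from mice given hetIL-15 or PBS. Members were taken by gene symbol: every *Tnfsf* or *Tnfrsf* gene followed by a number, together with *Tnf*, *Cd40*, *Cd40lg*, *Cd27* and *Cd70*. This gave 29 of the 758 genes in the data, 13 ligands and 16 receptors. *Fas*, *Fasl*, *Lta*, *Ltb* and *Ltbr* belong to the same families but fall outside the symbol rule, and are given apart. *Tnfsf9* and *Tnfrsf25*, the partners of *Tnfrsf9* and *Tnfsf15*, were not analysed here.

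RNA came from 11 whole tumors, 6 from mice given hetIL-15 and 5 from mice given PBS. hetIL-15 is the IL-15 cytokine bound to the alpha chain of its receptor, the form in which IL-15 circulates. Mice were C57BL/6, 6 to 8 weeks old at inoculation, and carried subcutaneous MC38 tumors, a line derived from mouse colon carcinoma. The hetIL-15 group received 3 µg of hetIL-15 IP, 3 times per week from day 5 after inoculation. The PBS group carried the same tumors without the cytokine, and all tumors were taken 3 h after injection 4. MC38 is a single transplanted line, and each tumor holds carcinoma cells, stroma and infiltrating leukocytes together. In such bulk RNA, fewer cells of a type and less RNA per cell cannot be told apart.

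TNF superfamily ligands are mostly membrane-bound trimers on leukocytes, and their receptors relay signals through TRAF adaptors to NF-κB or, where they carry a death domain, to apoptosis. 4-1BB, OX40, GITR, CD27, CD30 and HVEM deliver costimulation to T and NK cells. CD40 licenses antigen presenting cells, whereas BAFF-R, TACI and BCMA sustain B cells and plasma cells. In tumors, several of these receptors are targets of agonist antibodies.

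The values are log2 levels that the authors quantile normalized across tumors, from an nCounter panel of immune genes read with color-coded probes. Depth per tumor is not known here, and the lower end of the scale moves in steps. Genes whose mean log2 level lay under 5.18, the 0.25 quantile of all genes, are called low in signal, and 16 of 29 members were among them. The lowest value listed in a tumor lay between 0.92 and 1.64 in the hetIL-15 group and between 1.21 and 1.92 in the PBS group. PBS tumors 4 and 5 stood apart. Each had 15 genes at its lowest value of 1.92 and only 6 distinct values under 5.18, against 10 to 15 distinct values in hetIL-15 tumors and 9 to 11 in the other PBS tumors. On the first principal component of all genes they scored −8.48 and −12.3. The other PBS tumors scored −4.06 to 0.54 and hetIL-15 tumors 0.69 to 9.42, so the groups did not overlap on it. T cell markers (*Cd3d*, *Cd3e*, *Cd3g*, *Cd4* and *Cd8a*) summed off the log2 scale to 226 to 416 in hetIL-15 tumors and 220 to 382 in PBS tumors. Macrophage markers (*Emr1*, *Cd68*, *Csf1r* and *Itgam*) summed to 2576 to 4124 in hetIL-15 tumors and 2798 to 3987 in PBS tumors. The epithelial markers *Epcam* and *Cdh1* were both low in signal, with mean log2 levels of 5.05 and 4.89 over all tumors.

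Tumors from hetIL-15-treated mice expressed less *Tnfsf15* and less *Tnfsf8* than PBS tumors. These were the members whose difference passed an adjusted p of 0.05 (limma, Benjamini-Hochberg over 758 genes), and both are ligands. No receptor passed, although *Tnfrsf9* and *Tnfrsf13c* lay higher in hetIL-15 tumors at an unadjusted p under 0.05. Over the whole panel 3 genes were called lower, 0.396% of those tested, and 13 were called higher, 1.72%. Members gave 2 of 29 lower calls (6.9%) and 0 higher calls. *Tnfsf15* and *Tnfsf8* were also the only members in which every hetIL-15 tumor lay below every PBS tumor, a pattern found in 0.66% of all genes. No member had every hetIL-15 tumor above every PBS tumor, against 1.85% of all genes.

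*Tnfsf15* and *Tnfsf8* are next to each other on chromosome 4, with 0 protein-coding genes between them in RefSeq (GRCm38.p6). Their promoters are shown because these neighbors were both lower, and a *Tnfrsf9* promoter because it was the only member window with all 3 motifs searched. Each is a window of 300 bases around the gene's start, 5′ to 3′ on the gene's strand (RefSeq, GRCm38.p6). The motifs were searched on both strands: a STAT motif (TTCNNNGAA), an AP-1 motif (TGANTCA) and the NF-κB motif. Capitals mark matches, and neither ligand promoter held one.
Tnfsf15, chr4:63745010-63745309, minus strand: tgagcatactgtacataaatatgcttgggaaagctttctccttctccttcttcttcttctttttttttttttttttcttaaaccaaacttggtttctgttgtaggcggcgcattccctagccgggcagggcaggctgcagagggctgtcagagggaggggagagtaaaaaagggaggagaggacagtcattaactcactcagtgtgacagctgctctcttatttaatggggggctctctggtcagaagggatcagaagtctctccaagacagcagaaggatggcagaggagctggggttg
Tnfsf8, chr4:63861235-63861534, minus strand: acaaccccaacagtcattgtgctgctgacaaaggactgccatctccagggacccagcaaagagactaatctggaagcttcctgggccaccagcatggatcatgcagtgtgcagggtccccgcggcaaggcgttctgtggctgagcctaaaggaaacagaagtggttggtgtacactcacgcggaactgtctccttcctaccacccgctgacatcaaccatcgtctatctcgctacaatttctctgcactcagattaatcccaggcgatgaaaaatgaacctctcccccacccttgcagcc
Tnfrsf9, chr4:150927749-150928048, plus strand: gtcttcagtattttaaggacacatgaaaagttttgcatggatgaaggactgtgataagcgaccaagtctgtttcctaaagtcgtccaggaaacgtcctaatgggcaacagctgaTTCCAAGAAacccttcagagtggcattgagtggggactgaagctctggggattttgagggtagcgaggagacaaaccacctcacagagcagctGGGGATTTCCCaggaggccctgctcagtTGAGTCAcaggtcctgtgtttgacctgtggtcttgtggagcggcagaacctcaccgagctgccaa
In the *Tnfrsf9* window the capitals are, in order, the STAT match at −136, overlapping NF-κB matches at −43 and −42 and the AP-1 match at −15 from the start. The other *Tnfrsf9* start in the table, chr4:150919905-150920204 on the plus strand, held none of the motifs. Promoters were given for 22 of 29 members, 24 windows in all. The STAT motif was in the windows of 4 genes (*Tnfrsf18*, *Tnfrsf1a*, *Tnfrsf1b* and *Tnfrsf9*), against 8.3% of 32851 promoters. The AP-1 motif was in those of 5 genes (*Tnfrsf8*, *Tnfrsf9*, *Tnfsf13*, *Tnfsf13b* and *Tnfsf14*), against 7.81%, and the NF-κB motif in those of *Tnfrsf8* and *Tnfrsf9*, against 8.46%. These matches describe letters in the windows only.

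*Tnfsf15* encodes TL1A, a ligand made by endothelial and myeloid cells that costimulates lymphocytes through DR3. Its log2 level had a lowest value of 3.23, a median of 3.36 and a highest of 3.75 in hetIL-15 tumors, against 3.79, 4.62, 4.46, 4.58 and 4.62 in PBS tumors 1 to 5. The hetIL-15 tumors were tightly grouped, and the gap to the nearest PBS tumor, replicate 1, was narrow. *Tnfsf15* is low in signal, where values move in steps. In each hetIL-15 tumor 20 to 29 other genes had the same value as *Tnfsf15*. Tumors 4 and 5 of that group shared the value 3.34, and PBS tumors 2 and 5 the value 4.62. *Tnfsf15* averaged 3.45 ± 0.21 in hetIL-15 tumors (SD, n = 6) and 4.41 ± 0.36 in PBS tumors (SD, n = 5). The log2 fold change, hetIL-15 over PBS, was −0.97 (SE 0.17, 95% interval −1.34 to −0.60, adjusted p = 0.0162 by limma), a level 1.95-fold lower. The exact two-sided permutation p was 0.00216, the smallest that 462 groupings of the tumors allow. Without PBS tumors 4 and 5 the log2 fold change was −0.84 with an adjusted p of 0.114.

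*Tnfsf8* encodes CD30 ligand, carried by activated lymphocytes and myeloid cells. Its log2 level had a lowest value of 2.88, a median of 4.06 and a highest of 4.34 in hetIL-15 tumors, against 5.19, 5.05, 5.19, 5.22 and 6.43 in PBS tumors. PBS tumor 5 was far above the other PBS tumors, which lay within a narrow band. *Tnfsf8* is also low in signal, and PBS tumors 1 and 3 shared the value 5.19. *Tnfsf8* averaged 3.86 ± 0.54 in hetIL-15 tumors and 5.42 ± 0.57 in PBS tumors. This was the most negative log2 fold change of all 758 genes, −1.55 (SE 0.31, 95% interval −2.24 to −0.86, adjusted p = 0.0259 by limma, exact permutation p = 0.00216). The level was 2.93-fold lower. Without PBS tumors 4 and 5 the log2 fold change was −1.28 with an adjusted p of 0.114.

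The receptor for CD30 ligand did not pass the test. *Tnfrsf8*, encoding CD30, a marker of activated T cells, had a lowest log2 level of 1.92, a median of 3.51 and a highest of 3.91 in hetIL-15 tumors, against 2.88, 4.17, 4.15, 3.19 and 4.98 in PBS tumors. The groups overlapped, and the low value was hetIL-15 tumor 3. The log2 fold change of *Tnfrsf8* was −0.55 (SE 0.43, 95% interval −1.51 to 0.41, adjusted p = 0.729 by limma). It was −0.27 without hetIL-15 tumor 3 and −0.28 without PBS tumor 5. In PBS tumor 5, *Tnfsf8* and *Tnfrsf8* both had their highest value of the 11 tumors.

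**Figure D1:**
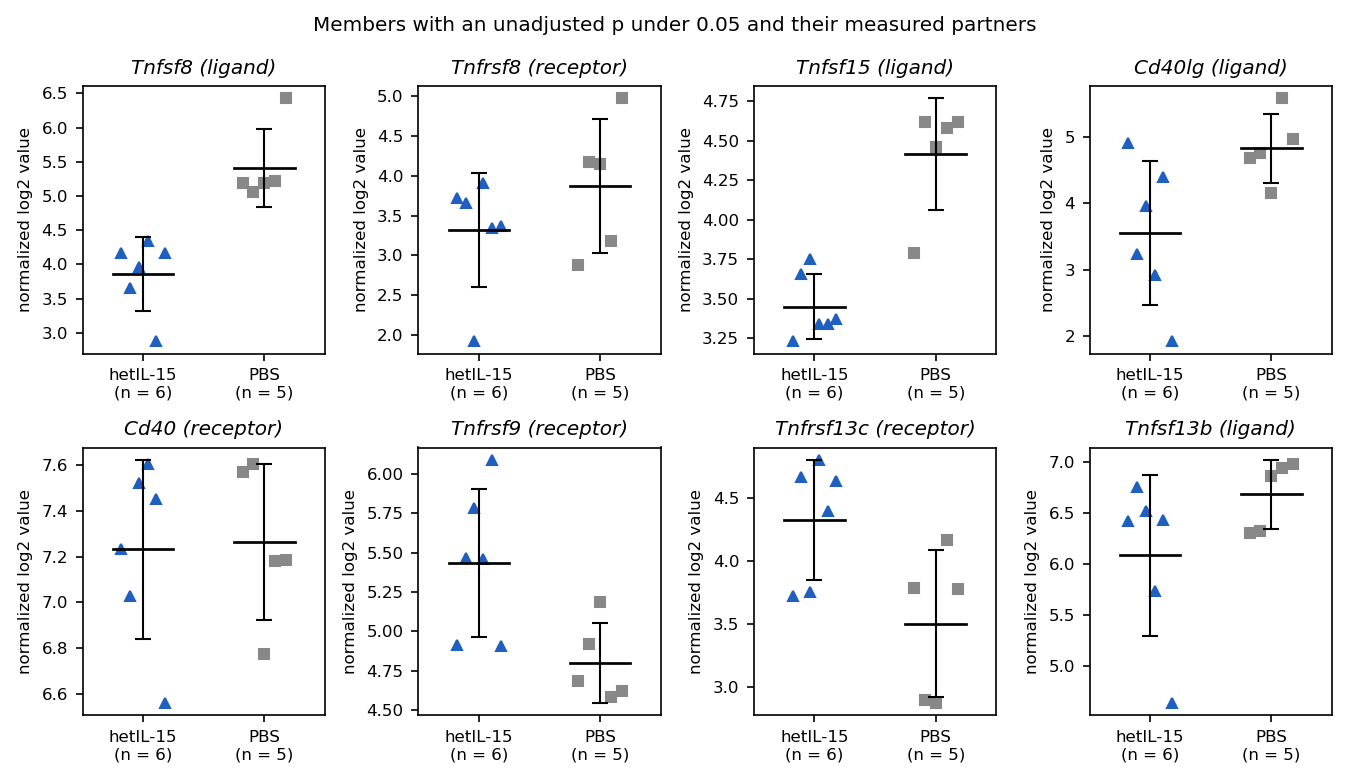
Log2 level (vertical axis, each panel on its own scale) of the 5 members with an unadjusted p under 0.05 and of their measured partners, in hetIL-15 tumors (blue triangles, n = 6) and PBS tumors (gray squares, n = 5), with the mean and SD. The groups separate for *Tnfsf8* and *Tnfsf15* and overlap in every other panel.

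Some summed cell type markers differed between the same groups. Dendritic cell markers (*Itgax*, *Xcr1* and *Flt3*) summed to 89.2 to 105 in hetIL-15 tumors and 112 to 157 in PBS tumors, with no overlap and 0 of 3 called. The 3 genes did not share a direction: *Itgax*, which NK cells and macrophages share, had a log2 fold change of −0.76 (SE 0.20, limma adjusted p = 0.126), *Flt3* one of −0.15 (SE 0.22) and *Xcr1* one of 0.28 (SE 0.32). NK cell markers (*Ncr1* and *Klrb1c*) summed to 119 to 220 in hetIL-15 tumors and 71.0 to 99.6 in PBS tumors, and *Ncr1* was called higher with a log2 fold change of 1.10 (SE 0.19, limma adjusted p = 0.0162). Endothelial markers (*Pecam1* and *Cdh5*) summed to 566 to 982 in hetIL-15 tumors and 807 to 946 in PBS tumors. The part of these cells in the *Tnfsf15* and *Tnfsf8* differences was not tested.

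A further 3 members had an unadjusted p under 0.05 and did not pass the adjustment. Of all genes 7.39% lay higher and 4.49% lower at this level, and of members 2 (6.9%) lay higher and 3 (10.3%) lower, *Tnfsf15* and *Tnfsf8* included. All 5 of these members were low in signal.

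*Cd40lg*, the ligand that activated CD4+ T cells use to license antigen presenting cells, had a lowest log2 level of 1.92, a median of 3.59 and a highest of 4.91 in hetIL-15 tumors, against 4.68, 4.76, 4.15, 5.59 and 4.98 in PBS tumors. The hetIL-15 tumors were widely spread, and 4 of 6 lay below every PBS tumor. The log2 fold change of *Cd40lg* was −1.28 (SE 0.49, 95% interval −2.36 to −0.19, unadjusted p = 0.0252 and adjusted p = 0.331 by limma, exact permutation p = 0.045). It moved to −0.95 without hetIL-15 tumor 6 and to −1.55 without hetIL-15 tumor 1. *Cd40*, its receptor on dendritic cells, macrophages and B cells, had a lowest log2 level of 6.56, a median of 7.34 and a highest of 7.61 in hetIL-15 tumors, against 7.57, 7.61, 6.77, 7.18 and 7.19 in PBS tumors. These ranges largely coincided, and the log2 fold change of *Cd40* was −0.03 (SE 0.21, 95% interval −0.50 to 0.44, adjusted p = 0.965 by limma).

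*Tnfrsf9* encodes 4-1BB, induced on activated CD8+ T and NK cells. Its log2 level had a lowest value of 4.91, a median of 5.46 and a highest of 6.09 in hetIL-15 tumors, against 4.68, 4.92, 5.19, 4.58 and 4.62 in PBS tumors. Of the hetIL-15 tumors, 4 of 6 lay above every PBS tumor and 6 of 6 above the PBS mean. The log2 fold change of *Tnfrsf9* was 0.64 (SE 0.22, 95% interval 0.14 to 1.13, unadjusted p = 0.0163 and adjusted p = 0.301 by limma, exact permutation p = 0.026). Among the members it had the highest mean level of those low in signal. The summed NK cell markers given above were also higher in hetIL-15 tumors, and their part in this value was not tested.

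*Tnfrsf13c* encodes BAFF-R, the B cell survival receptor. Its log2 level had a lowest value of 3.72, a median of 4.52 and a highest of 4.80 in hetIL-15 tumors, against 3.79, 2.90, 2.88, 4.17 and 3.78 in PBS tumors. The groups overlapped, with 4 of 6 hetIL-15 tumors above every PBS tumor. The log2 fold change of *Tnfrsf13c* was 0.83 (SE 0.30, unadjusted p = 0.0186 and adjusted p = 0.316 by limma, exact permutation p = 0.039). Among B cell markers, the log2 fold change was −0.60 for *Ms4a1* (SE 0.50), −0.42 for *Cd79b* (SE 0.21) and −0.31 for *Blk* (SE 0.49), and none of these passed the test. The part of B cells in the *Tnfrsf13c* value was not tested.

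The ligand of BAFF-R and the other receptors of that ligand had log2 fold changes below 0, and none passed the test. *Tnfsf13b*, encoding BAFF, had a lowest log2 level of 4.64, a median of 6.42 and a highest of 6.75 in hetIL-15 tumors, against 6.30, 6.32, 6.86, 6.94 and 6.98 in PBS tumors. The lowest value was hetIL-15 tumor 6, and the log2 fold change of *Tnfsf13b* was −0.60 (SE 0.35, limma adjusted p = 0.566), or −0.31 without that tumor. *Tnfrsf13b*, encoding TACI, had a lowest log2 level of 3.91, a median of 4.46 and a highest of 4.64 in hetIL-15 tumors, against 4.17, 4.17, 4.68, 5.59 and 4.98 in PBS tumors. Its log2 fold change was −0.37 (SE 0.26, limma adjusted p = 0.657), or −0.16 without PBS tumor 4. *Tnfrsf17*, encoding BCMA, the plasma cell receptor for BAFF and APRIL, ran between 1.92 and 4.46 in hetIL-15 tumors and between 1.92 and 4.68 in PBS tumors. Its log2 fold change was −0.06 with an interval of −1.33 to 1.22, wide enough to hold a change of more than 2-fold either way. *Tnfsf13*, encoding APRIL, had a log2 fold change of −0.40 (SE 0.34, limma adjusted p = 0.752), and PBS tumors 4 and 5 moved it in opposite ways. It was −0.73 without PBS tumor 4 (unadjusted p = 0.00936 and adjusted p = 0.238 by limma) and −0.21 without PBS tumor 5.

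Among the other costimulatory pairs, the estimates of GITR ligand and GITR lay on opposite sides of 0, those of the remaining pairs lay on the same side, and none of these genes passed the test. *Tnfsf18* (GITR ligand) averaged 3.45 ± 1.45 in hetIL-15 tumors and 4.19 ± 0.62 in PBS tumors, and *Tnfrsf18* (GITR, carried by regulatory and activated T cells) averaged 4.39 ± 0.61 in hetIL-15 tumors and 3.56 ± 0.94 in PBS tumors. The log2 fold change was −0.74 for *Tnfsf18* (SE 0.64, limma adjusted p = 0.753) and 0.83 for *Tnfrsf18* (SE 0.43, limma adjusted p = 0.513). Single tumors set much of both values. Without PBS tumor 5, where *Tnfrsf18* stood at that tumor's lowest listed value of 1.92, its log2 fold change was 0.42, and without hetIL-15 tumor 3 that of *Tnfsf18* was −0.26. *Tnfsf4* (OX40 ligand) had a log2 fold change of −0.56 (SE 0.41) and *Tnfrsf4* (OX40) of −0.13 (SE 0.16). That of *Tnfsf4* was −0.86 without hetIL-15 tumor 2 (unadjusted p = 0.019 and adjusted p = 0.396 by limma) and −0.34 without hetIL-15 tumor 1. *Cd70* stood at −0.22 (SE 0.38), and its receptor *Cd27*, a costimulatory receptor of T and NK cells, at −0.03 (SE 0.49). PBS tumor 5 again had *Cd27* at 1.92, and without it the log2 fold change of *Cd27* was −0.53 with an adjusted p of 0.618. *Tnfsf14* (LIGHT) stood at 0.29 (SE 0.24) and its receptor *Tnfrsf14* (HVEM) at 0.05 (SE 0.18). With 1 tumor left out, *Cd70* ran from −0.41 without PBS tumor 1 to 0.01 without PBS tumor 5, and *Tnfsf14* was 0.15 without PBS tumor 4 and 0.16 without hetIL-15 tumor 6.

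**Figure D2:**
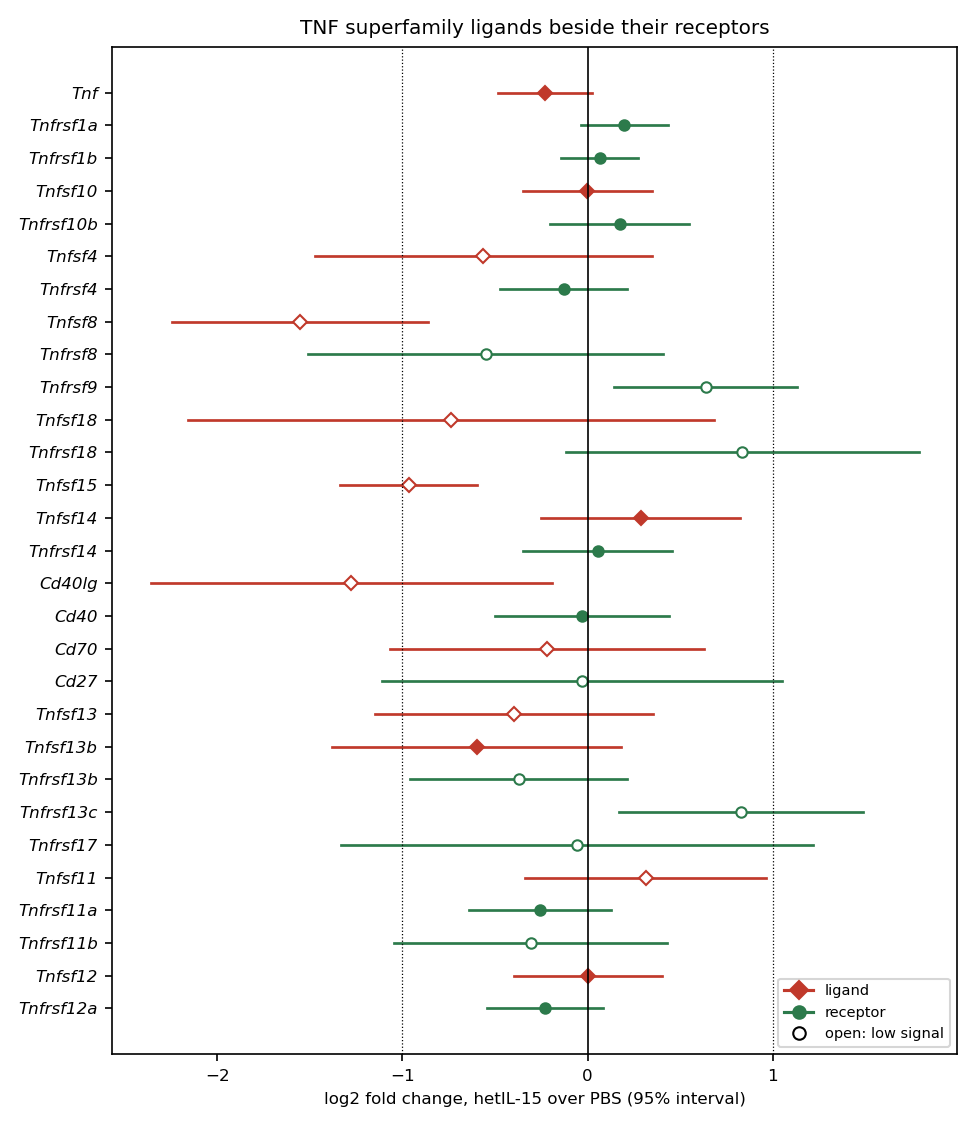
Log2 fold change, hetIL-15 over PBS, of each of the 29 members with its 95% interval (horizontal axis), ligands as red diamonds beside their receptors as green circles, open symbols where low in signal. The intervals of *Tnfsf8*, *Tnfsf15* and *Cd40lg* lie clear of 0 on the lower side and those of *Tnfrsf9* and *Tnfrsf13c* on the upper side, and dotted lines mark a 2-fold change.

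The genes of inflammation and death signaling had narrow intervals, and none passed the test. *Tnf* averaged 5.71 ± 0.17 in hetIL-15 tumors and 5.94 ± 0.19 in PBS tumors, with 4 of 6 hetIL-15 tumors below every PBS tumor and a log2 fold change of −0.23 (SE 0.12, 95% interval −0.48 to 0.02, adjusted p = 0.484 by limma). *Tnfrsf1a*, the broadly expressed death domain receptor for TNF, averaged 10.61 ± 0.19 in hetIL-15 tumors and 10.41 ± 0.11 in PBS tumors (log2 fold change 0.20, SE 0.11, limma adjusted p = 0.535). *Tnfrsf1b*, the TNF receptor of leukocytes and endothelium, stood at 0.07 (95% interval −0.14 to 0.27). *Tnfsf10*, encoding the apoptosis inducing ligand TRAIL, stood at −0.00 (95% interval −0.35 to 0.35), and its receptor *Tnfrsf10b* at 0.17 (95% interval −0.20 to 0.55), or 0.08 without hetIL-15 tumor 5 and 0.29 without hetIL-15 tumor 1. For all 5 genes the interval stayed within a 2-fold change, and none was low in signal.

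The remaining pairs are best known from bone and tissue repair. *Tnfsf11*, encoding RANKL, had a log2 fold change of 0.31 (SE 0.29), its signaling receptor *Tnfrsf11a* one of −0.26 (SE 0.17), and *Tnfrsf11b*, the soluble decoy osteoprotegerin, one of −0.31 (SE 0.33). *Tnfrsf11a* was spread to both sides: 4 of 6 hetIL-15 tumors lay below and 2 of 6 above every PBS tumor. Its SD was 0.39 in hetIL-15 tumors and 0.09 in PBS tumors. Other members, given above, had a similar spread. For *Tnfrsf4* 4 hetIL-15 tumors lay below and 1 above every PBS tumor, and for *Tnfrsf10b* 1 lay below and 3 above. *Tnfrsf4* read 5.73 in PBS tumors 2, 3 and 4 and in hetIL-15 tumor 6, so its narrow PBS range includes tied values. *Tnfsf12*, encoding TWEAK, stood at 0.00 (SE 0.18), and *Tnfrsf12a*, encoding its receptor Fn14, at −0.23 (SE 0.14). With 1 tumor left out, *Tnfrsf11b* ran from −0.63 without PBS tumor 2 to −0.13 without PBS tumor 3, *Tnfrsf11a* was −0.15 without hetIL-15 tumor 2, and *Tnfsf11* was 0.18 without hetIL-15 tumor 4 and 0.20 without PBS tumor 4. Adjusted p in these 5 genes lay between 0.600 and 1.000 (limma).

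**Figure D3:**
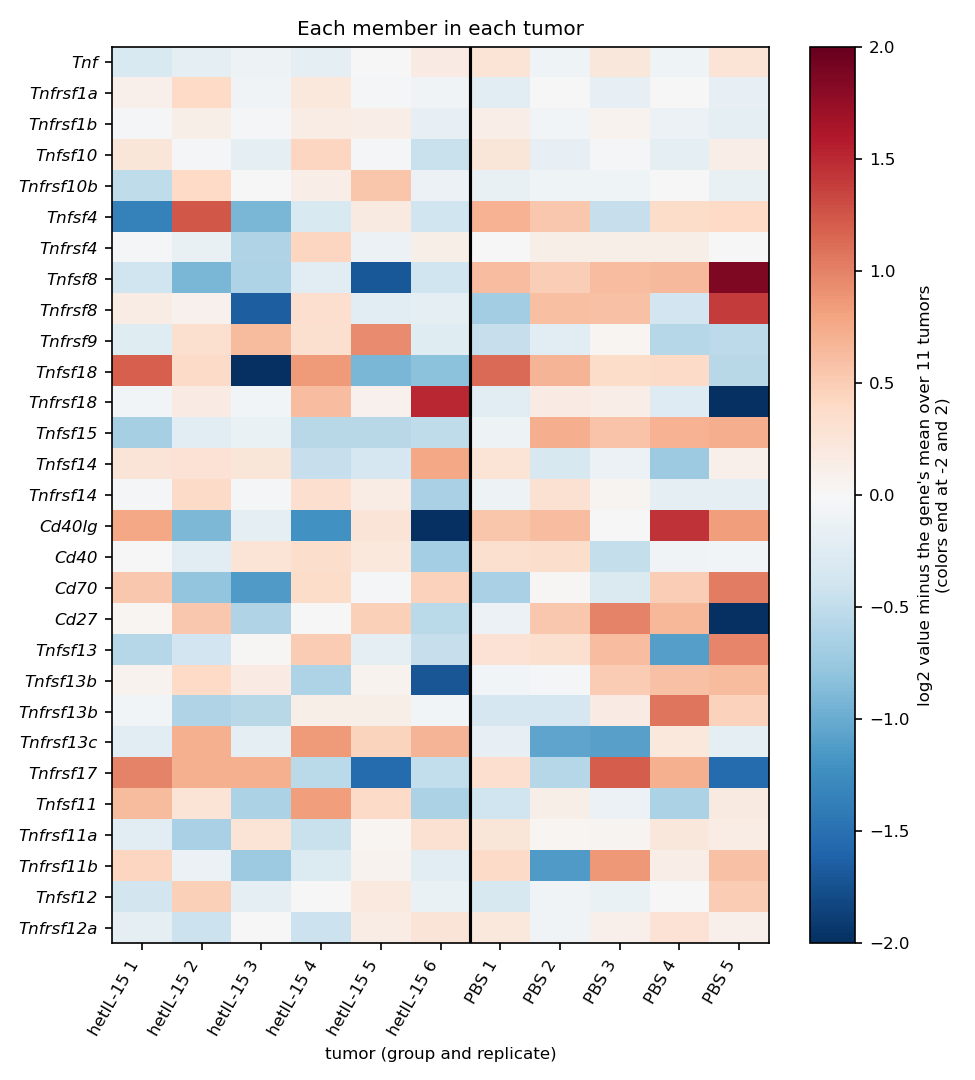
Log2 level of each member (down) in each tumor (across, hetIL-15 tumors left of the line and PBS tumors right), as the difference from the gene's mean over 11 tumors, with colors ending at −2 and 2. *Tnfsf8* and *Tnfsf15* are blue on the hetIL-15 side. Single dark cells mark *Tnfsf18* in hetIL-15 tumor 3, *Cd40lg* in hetIL-15 tumor 6, and *Cd27* and *Tnfrsf18* in PBS tumor 5.

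Of the 13 ligands, 10 had a log2 fold change below 0, with a median of −0.40. Of the 16 receptors, 9 lay below 0, with a median of −0.03, which is also the median over all genes. The median over all 29 members was −0.13, with 19 below 0, or 15 below 0 after scaling to housekeeping genes. In the main settings 428 of all 758 genes lay below 0. Among 20 ligand and receptor pairs listed, both partners were measured in 18. Both lay below 0 in 9 of these, the ligand below and the receptor above 0 in 5, the reverse in 3, and both above 0 in 1. Some genes, among them *Tnfsf13b* and *Tnfrsf13b*, are in more than 1 pair, so these counts are not independent. Members low in signal were less closely measured than the others. The 16 members low in signal had a median log2 fold change of −0.34 and a median SD within groups of 0.64, and the interval stayed within a 2-fold change in 2. The other 13 had a median of −0.00 and a median SD of 0.29, and the interval stayed within a 2-fold change in 12, the exception being *Tnfsf13b*. All 190 genes of low signal had a median log2 fold change of −0.03.

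**Figure D4:**
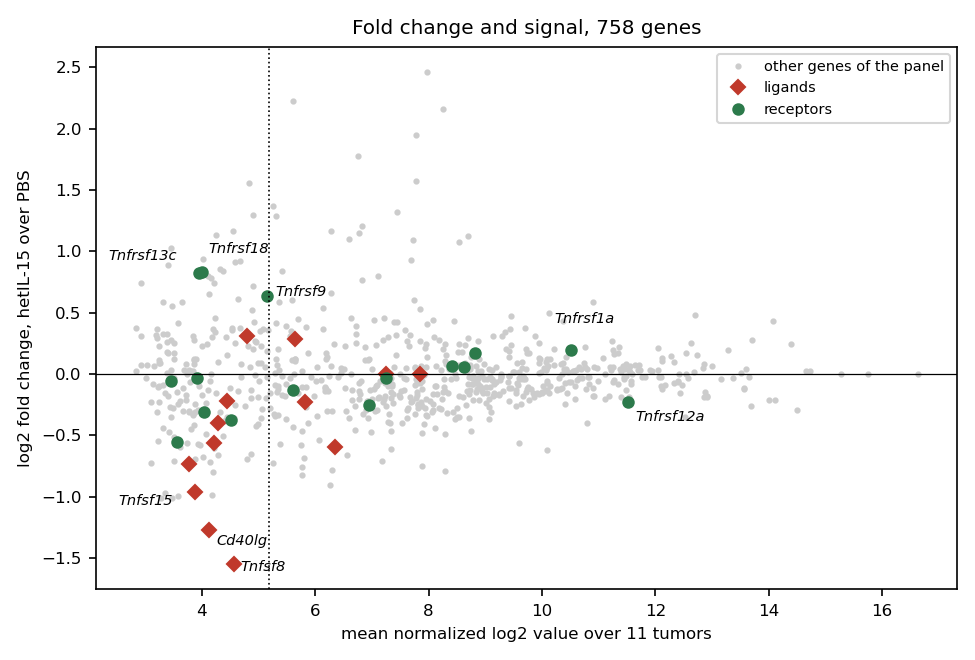
Log2 fold change, hetIL-15 over PBS (vertical axis), against the mean log2 level over 11 tumors (horizontal axis) for 758 genes, with ligands as red diamonds, receptors as green circles and other genes in gray. The dotted line marks the low signal limit of 5.18, and the members with an unadjusted p under 0.05 all lie left of it.

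Other family genes that adjoin each other in the genome had estimates of unlike sign in several cases. On chromosome 1, *Tnfsf18* (−0.74) lies between *Tnfsf4* (−0.56) and *Fasl*, the death ligand of cytotoxic lymphocytes, which was called higher with a log2 fold change of 1.16 (SE 0.22, limma adjusted p = 0.0227). On chromosome 17, *Tnf* (−0.23) adjoins *Lta* (1.56, SE 0.52, limma adjusted p = 0.264) and *Ltb* (0.35, adjusted p = 0.603), which encode the lymphotoxins. On chromosome 4, *Tnfrsf18* (0.83) adjoins *Tnfrsf4* (−0.13). *Fas* stood at −0.22 and the lymphotoxin beta receptor gene *Ltbr* at 0.05, and neither passed the test.

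Genes that carry the signal inside the cell showed no call. A list of 40 adaptors, kinases, NF-κB subunits and death domain partners had 30 measured genes. Of these 0 passed in either direction, where 1.72% of all 758 genes were called higher and 0.396% lower. At those shares a list of this length would hold few calls or none. Of the measured list genes 12 lay above and 18 below 0, and the log2 fold changes ran from −0.36 to 0.17 with a median of −0.03. All 30 intervals stayed within a 2-fold change. At an unadjusted p under 0.05 there was 1 gene, lower in hetIL-15 tumors, where 4.49% of all genes lay lower and 7.39% higher. This gene, *Traf3*, encodes an adaptor that restrains noncanonical NF-κB signaling. *Traf3* averaged 8.56 ± 0.21 in hetIL-15 tumors and 8.92 ± 0.22 in PBS tumors (log2 fold change −0.36, SE 0.13, unadjusted p = 0.0219 and adjusted p = 0.318 by limma).

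The calls depended on single tumors to differing degrees. With 1 tumor left out at a time, *Tnfsf15* passed in 11 of 11 cases, with log2 fold changes between −1.12 and −0.91. *Tnfsf8* passed in 6 of 11 cases, with log2 fold changes between −1.65 and −1.30. Its adjusted p by limma was 0.0593 without PBS tumor 1, 0.0512 without PBS tumor 3, 0.0558 without PBS tumor 4, 0.0707 without hetIL-15 tumor 2 and 0.0567 without hetIL-15 tumor 3. No other member passed in any of the 11 cases.

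**Figure D5:**
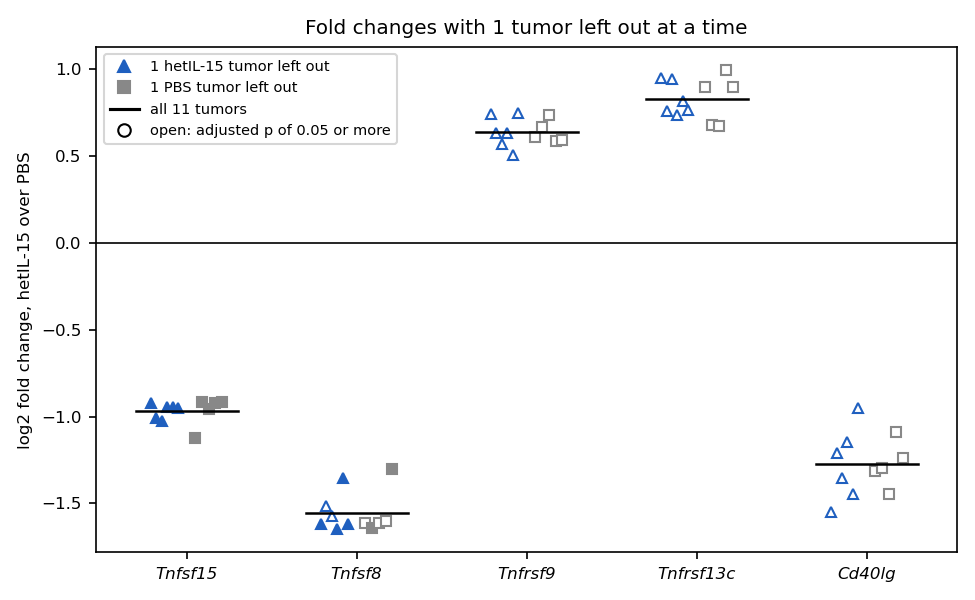
Log2 fold change, hetIL-15 over PBS (vertical axis), of the 5 members with an unadjusted p under 0.05 when 1 hetIL-15 tumor (blue triangles) or 1 PBS tumor (gray squares) was left out, with the value from all 11 tumors as a line. Filled symbols mark an adjusted p under 0.05, which *Tnfsf15* kept in 11 of 11 cases and *Tnfsf8* in 6 of 11.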

How the data were processed

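Whole tumors were homogenized, RNA was extracted and probes were counted on the nCounter panel by the authors. They removed low expressed genes (758 of 780 left), and log transformed and quantile normalized the counts, and the deposited log2 values were used here as given. A further 11 columns of probe counts carry names that match no tumor and were not used here, and the same table served for probe names and accessions. Tumors were grouped by the treatment in the labels. hetIL-15 was compared with PBS using limma 3.58.1 (lmFit and eBayes) in R 4.3.3, with no covariates, on all 758 genes, with Benjamini-Hochberg adjustment over all of them and a threshold of 0.05. Exact two-sided permutation tests ran over 462 groupings. The labels name separate tumors but not the mouse each came from, so p values measure the spread between these tumors. Alternatives were housekeeping or median scaling, leaving out genes low in signal, an intensity trend, array weights, robust variances, the Mann-Whitney test, Bonferroni adjustment, leaving out tumors and the replicate number as a block. Same-numbered tumors had deviations from their group means that correlated between −0.05 and 0.13. Differently numbered tumors were not compared in this way, so these values cannot show whether replicate numbers pair tumors. Tumors were treated as unpaired in the main comparison.

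Members and lists were chosen with earlier results of these data known. Every member is named. A B cell marker of the lists is not reported here. Values by tumor are given for members with an adjusted or unadjusted p under 0.05 or without overlap between groups, and for their partners, and signaling genes are named at an unadjusted p under 0.05. Fold changes given without a p did not pass the test. Members were matched to RefSeq (GRCm38.p6) by accession, 29 of 29 with the same symbol. The procedure was tested on simulated data. Plots used matplotlib 3.10.9 in Python 3.11.15.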

Additional observations from a re-analysis of the deposited data

Results flagged for a closer look

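In 5 of 58 groups of values (29 members in both groups), 1 tumor lay far from the others of its group by Dixon's criterion, which chance meets in about 1 in 20 groups. *Tnfrsf8* was 1.92 in hetIL-15 tumor 3, and 3.34 to 3.91 in the other hetIL-15 tumors. *Tnfsf8* was 6.43 in PBS tumor 5, and 5.05 to 5.22 in the other PBS tumors. *Tnfrsf18* was 1.92 in PBS tumor 5, and 3.75 to 4.17 in the other PBS tumors. *Tnfsf15* was 3.79 in PBS tumor 1, and 4.46 to 4.62 in the other PBS tumors. *Tnfsf4* was 3.75 in PBS tumor 3, and 4.58 to 4.92 in the other PBS tumors. All 5 genes are low in signal.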

How the results depend on the processing

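The count of members called lower was 2 with all tumors and the main settings. It was 1 after scaling to housekeeping genes, 1 with an intensity trend, and 0 without genes of low signal, without PBS tumors 4 and 5, with the replicate block, by the exact Mann-Whitney test (smallest adjusted p over all genes 0.173, 3 members at an unadjusted p under 0.05) and by Bonferroni adjustment. With 1 tumor left out it ran from 1 to 2, and was 1 without PBS tumors 1, 3 or 4 or hetIL-15 tumors 2 or 3. No member was called higher in any of these. With the intensity trend *Tnfsf15* had an adjusted p of 0.0938, and with housekeeping scaling *Tnfsf8* had one of 0.0522. With the replicate block the log2 fold change was −0.95 for *Tnfsf15* (adjusted p = 0.0674 by limma) and −1.62 for *Tnfsf8* (adjusted p = 0.253 by limma). Leaving out genes of low signal removes both genes before the test. By the Mann-Whitney test both had an unadjusted p of 0.00433, the smallest that these group sizes allow. No gene of the panel passed the adjustment of that test, so its count of 0 is not particular to members.

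Members whose groups do not overlap numbered 2, but 1 after housekeeping scaling and 0 without genes of low signal, and 2 with any 1 tumor left out. Members at an unadjusted p under 0.05 numbered 5, 0 without genes of low signal, and 4 to 7 with 1 tumor left out. The median log2 fold change of members was −0.13, −0.04 after housekeeping scaling, −0.00105 without genes of low signal, −0.17 with the replicate block and −0.21 to −0.09 with 1 tumor left out. Housekeeping scaling put the median of all genes at 0.05 in place of −0.03, and 14 of 29 members above 0 in place of 10. The cause of these shifts was not tested. The signaling list had 0 calls throughout. No called value changed sign. Small estimates such as those of *Cd27*, *Cd40*, *Cd70*, *Tnfrsf1b*, *Tnfrsf13b*, *Tnfrsf14*, *Tnfrsf17*, *Tnfsf10* and *Tnfsf12* changed sign in some settings. Signal over background per tumor is not known here, and it limits the 16 members low in signal most.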
